A study of Mus musculus with 6 samples.

Results

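The barcodes described here are droplets of a mouse spleen single-cell experiment whose counts were mostly haemoglobin transcripts and which held few other genes. A barcode was included when it had fewer than 200 genes with a count, at least 50 counts in total, and at least 50% of its counts on the 4 adult globin genes Hba-a1, Hba-a2, Hbb-bs and Hbb-bt. Over 6 libraries, 749 of 20036 barcodes met the rule, which is 3.74% of all barcodes and 16.8% of the 4457 barcodes with fewer than 200 genes. They are called haemoglobin-dominated barcodes below, and the remaining 3708 barcodes with fewer than 200 genes are called the other low-gene barcodes. A further 119 barcodes also passed 50% globin but had 200 genes or more. The barcodes were chosen by measured values, namely total counts, globin counts and gene number, so these are given only as a description.

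The labels give spleen from 10-week-old female mice, and the series text names the strain C57BL/6. Long cDNA from the 10x Genomics droplet platform was read on a Nanopore sequencer after 3 protocols, each with 2 libraries numbered replicates 1 and 2. The 3′ protocol joins the cell barcode at the poly(A) end, and the standard 5′ protocol joins it where the reverse transcriptase switches template. In the modified 5′ protocol the reaction had 1 µl of 10 mM dNTP added, 2 h instead of 45 min of reverse transcription extension and 3 min instead of 1 min of amplification extension. For the replicate 1 libraries the labels describe spleens pressed through a 70 µm strainer and exposed for 30 s to ACK buffer, which bursts red cells. For the replicate 2 libraries the extraction text describes pancreatic islets and depletion of insulin cDNA, against their spleen label. Nothing in the labels assigns the replicates to different animals, and the p-values below therefore measure a between-library spread that may be technical. Values for the 6 libraries are given in the order 3′, standard 5′ and modified 5′ of replicate 1 and then the same order of replicate 2.

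Red cells are made from erythroblasts that divide, fill with haemoglobin, expel their nucleus and leave the marrow, or in mice also the spleen, as reticulocytes. A reticulocyte has no nucleus and makes no new transcripts. It lives on stored mRNA while it clears its mitochondria and ribosomes by autophagy and by the ubiquitin system, and it becomes a mature red cell when that RNA is gone. The mouse spleen both filters red cells and supports some erythropoiesis.

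The sequences bear on 2 points of the results. The first is how well the globin copies can be told apart, since the counts are given per gene. In the GENCODE M21 transcripts (GRCm38) the coding sequences of Hbb-bs and Hbb-bt, both 444 bases long, differ at 1 base, written C417T from Hbb-bs to Hbb-bt and counted from 1 at the first base of the start codon. Those of Hba-a1 and Hba-a2, both 429 bases long, differ at 1 base, C381T from Hba-a1 to Hba-a2. The 60 coding bases around each difference are shown, with the differing base in capitals.
Hbb-bs: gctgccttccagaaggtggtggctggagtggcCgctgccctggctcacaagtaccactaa
Hbb-bt: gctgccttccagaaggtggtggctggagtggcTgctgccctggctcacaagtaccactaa
Hba-a1: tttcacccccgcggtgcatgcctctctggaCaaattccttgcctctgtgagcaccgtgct
Hba-a2: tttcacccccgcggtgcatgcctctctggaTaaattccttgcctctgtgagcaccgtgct
Over the whole annotated transcripts, coding part included, the beta copies are less alike than the alpha copies. Of the 31-base words in the annotated transcripts of Hbb-bt, 59.4% also occur in those of Hbb-bs, and 54.4% the other way round. Of those of Hba-a2, 92.6% occur in Hba-a1, but only 75.4% of those of Hba-a1 occur in Hba-a2. The longest annotated transcript has 699 bases for Hba-a1 and 554 for Hba-a2. The way reads were assigned to a copy is not given in the sources used here. The split between copies is therefore uncertain, and most of all for the alpha genes.

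The second point is the promoters of the globins that chose the barcodes and of a gene carried with them. RefSeq promoters (GRCm38.p6, 300 bases each, mostly upstream of the start) are shown for an alpha globin, both beta globins and Alas2, the erythroid enzyme that starts haem synthesis. They lie at chr11:32296242-32296541 (plus strand), chr7:103827879-103828178 and chr7:103813874-103814173 (both minus strand) and chrX:150547167-150547466 (plus strand). Capitals mark matches on either strand to the motif of GATA factors, which was searched as AGATAA with its variant AGATAG and also as TGATAA with its variant TGATAG. They also mark CACCC, the core of the motif bound by KLF1.
Hba-a2: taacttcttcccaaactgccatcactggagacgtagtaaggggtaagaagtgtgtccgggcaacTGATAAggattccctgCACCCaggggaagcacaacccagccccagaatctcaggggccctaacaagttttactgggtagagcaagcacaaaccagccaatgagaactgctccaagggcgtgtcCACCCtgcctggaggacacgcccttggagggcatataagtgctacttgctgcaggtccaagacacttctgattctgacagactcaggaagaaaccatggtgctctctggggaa
Hbb-bs: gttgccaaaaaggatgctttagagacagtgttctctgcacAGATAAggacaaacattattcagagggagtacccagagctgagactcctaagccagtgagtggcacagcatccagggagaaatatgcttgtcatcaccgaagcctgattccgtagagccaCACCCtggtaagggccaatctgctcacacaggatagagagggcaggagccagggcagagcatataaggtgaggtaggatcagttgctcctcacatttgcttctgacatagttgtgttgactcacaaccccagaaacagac
Hbb-bt: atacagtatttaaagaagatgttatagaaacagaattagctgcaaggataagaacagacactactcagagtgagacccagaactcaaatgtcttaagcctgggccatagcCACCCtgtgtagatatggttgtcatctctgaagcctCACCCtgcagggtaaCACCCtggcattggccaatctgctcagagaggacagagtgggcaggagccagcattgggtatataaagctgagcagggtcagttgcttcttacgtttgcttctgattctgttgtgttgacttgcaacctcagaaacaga
Alas2: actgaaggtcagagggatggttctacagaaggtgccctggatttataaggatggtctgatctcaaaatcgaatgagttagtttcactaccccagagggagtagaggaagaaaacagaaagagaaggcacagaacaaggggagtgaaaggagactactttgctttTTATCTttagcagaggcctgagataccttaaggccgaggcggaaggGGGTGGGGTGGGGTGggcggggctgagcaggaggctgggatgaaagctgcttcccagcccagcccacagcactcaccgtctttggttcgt
Hba-a2, Hbb-bs and Alas2 each held 1 match to the GATA letters and Hbb-bt held 0, while CACCC occurred 2, 1, 3 and 3 times in the printed order. The promoters of Bpgm and Gpx1, leading genes below, held 0 GATA matches, and 0 and 1 of CACCC. Of 13 promoters found for the 15 genes with the largest rises, 38.5% held a GATA match and 61.5% held CACCC. Of all 32851 promoters in the table, 29.8% held a GATA match, 57.5% held CACCC and 14.9% held both. A match is a description of these letters only.

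The haemoglobin-dominated barcodes were unevenly spread over the libraries. There were 186, 205 and 293 in replicate 1 and 16, 22 and 27 in replicate 2. As a share of all barcodes of a library they were 6.77%, 8.10% and 11.3% against 0.322%, 0.587% and 0.781%, so that every replicate 1 library was above every replicate 2 library. The means were 8.73% ± 2.35 and 0.563% ± 0.230 (SD, n = 3 libraries each), and the two-sided exact permutation test gave p = 0.1, the smallest value that 3 against 3 libraries allow. The replicate number moves together with the labelled tissue preparation and red cell lysis, and these cannot be told apart.

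Within each replicate number the share rose from the 3′ to the standard 5′ to the modified 5′ library. Standard 5′ exceeded 3′ by 1.33 percentage points in replicate 1 and by 0.264 in replicate 2. Modified 5′ exceeded standard 5′ by 3.24 and 0.194 points, and 3′ by 4.57 and 0.458 points. With 2 libraries per protocol the exact permutation tests of the 3 pairs gave p = 0.667 each (adjusted over the 3 pairs 0.667), where 0.333 is the smallest value possible. The order of standard 5′ and 3′ in replicate 1 depended on the denominator, and the standard 5′ library there held 1466 other low-gene barcodes against 231 in the 3′ library. As a share of barcodes with fewer than 200 genes the haemoglobin-dominated ones were 44.6%, 12.3%, 52.1%, 1.74%, 4.07% and 7.76%.

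**Figure D1:**
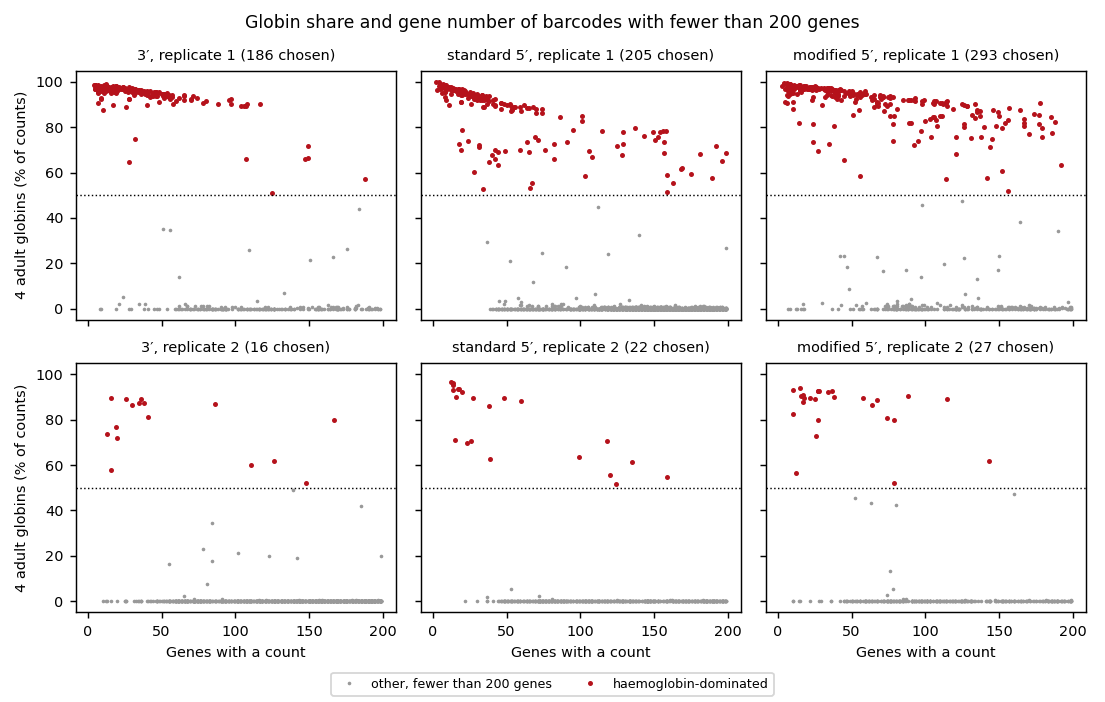
Each point is a barcode with fewer than 200 genes and at least 50 counts, placed by its number of genes (x axis) and by the percentage of its counts on the 4 adult globin genes (y axis), with a panel per library. Red points met the rule (50% line dotted): 525 of the 749 lay at 90% globin or more, and only 10 low-gene barcodes lay between 40% and 50%.

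Barcodes between the 2 classes were few. Of the 749 chosen, 525 (70.1%) had at least 90% globin, 111 had 80% to 90% and 113 had 50% to 80%. Just inside the threshold 23 barcodes had 50% to 60% globin, and just outside it 10 low-gene barcodes had 40% to 50%. At the gene limit, 10 chosen barcodes had 180 genes or more, and 6 globin-dominated barcodes had at least 200 but fewer than 220. The chosen barcodes had median totals of 933.5, 491, 1110, 356, 304.5 and 377 counts, of which the medians of non-globin counts were 37, 38, 63, 44, 30 and 33. Their median gene numbers were 29, 30, 42, 35.5, 26.5 and 27, against 109 to 154 in the other low-gene barcodes, which had median totals of 137 to 189 counts.

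These few barcodes held most of the globin transcripts of their libraries. Of all adult globin counts, 59.5%, 77.0%, 86.3%, 58.1%, 69.5% and 89.4% lay in haemoglobin-dominated barcodes. They took 8.43%, 13.9% and 20.9% of all counts in replicate 1 but 0.235%, 0.348% and 0.537% in replicate 2. Total depth was 723341 to 2627253 counts per library. The pooled barcodes gave 564466 globin and 52803 non-globin counts, and the rest of the results concern the latter. In replicate 2 the non-globin sums were 1289, 1385 and 1497 counts, so a single count there is 0.0668% to 0.0776% of the sum, against 0.00379% to 0.0107% in replicate 1. Barcode sequences were nearly unshared: at most 16 occurred in any pair of libraries, and 1 haemoglobin-dominated barcode sequence occurred in 2 libraries. Intervals given below are exact 95% intervals and cover counting error only.

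Erythroid transcripts other than the globins were also present in these barcodes. The lists used here were chosen with earlier results of these data known, so their shares are a description. A pooled set of 98 erythroid genes came from lists for haem synthesis, iron, membrane, enzymes, clearance and transcription factors. It left out the ubiquitin and ferritin genes that other cells also express strongly. It took 28.9%, 29.1%, 30.5%, 22.3%, 21.2% and 25.8% of the non-globin counts of the haemoglobin-dominated barcodes. In the other low-gene barcodes the same set took 0.902%, 0.531%, 1.25%, 0.573%, 0.527% and 0.709%, so the 2 classes did not overlap in any library. A set of 99 white cell markers ran the other way, at 0.388% to 0.939% against 3.98% to 9.07%. In the 6 libraries 20, 16, 25, 0, 1 and 0 haemoglobin-dominated barcodes had no count of the erythroid set, and its median per barcode was 11, 14, 21, 15, 9.5 and 12 counts. White cell markers had a median of 0 counts per barcode in every library. Neutrophil, stromal and endothelial, and basophil and mast cell markers were at 0 of 52803 non-globin counts, which allows a share of up to 0.00568%. Platelet markers had 4 counts, all in standard 5′ replicate 1, and pancreas markers had 1 count, in 3′ replicate 2.

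**Figure D2:**
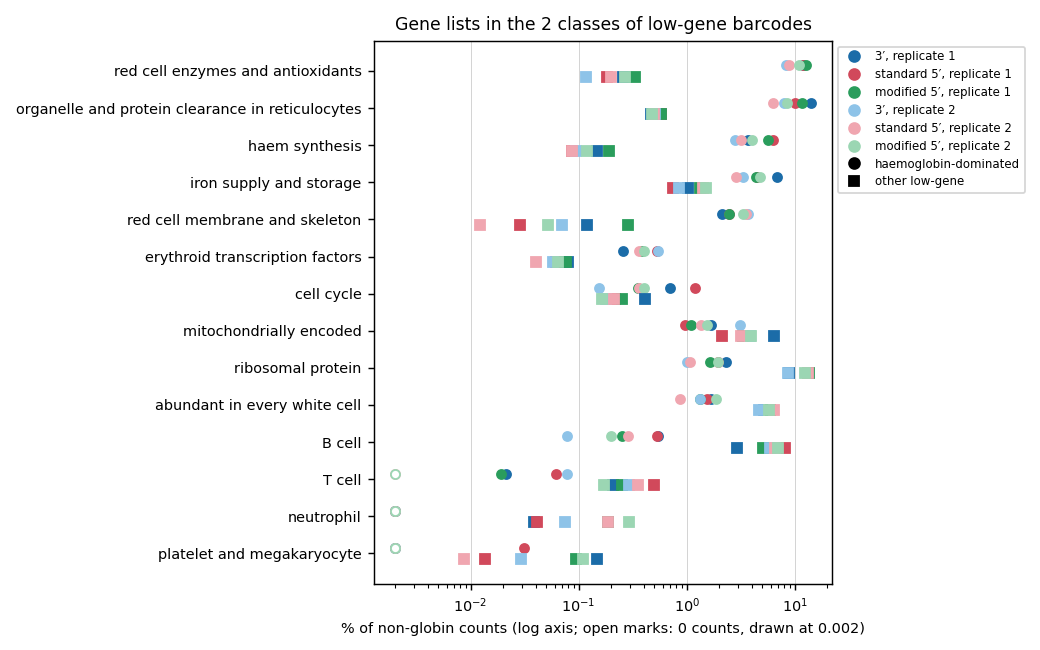
Share of non-globin counts (x axis, log scale) taken by 14 gene lists in each library (colour), for haemoglobin-dominated barcodes (circles) and the other low-gene barcodes (squares). The 6 erythroid lists lay higher in every library and the ribosomal protein, general white cell and B cell lists lay lower in every library. Cell cycle genes overlapped between the classes, at 0.155% to 1.18% against 0.164% to 0.414%.

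To compare single genes, counts without the 4 globins were summed per library and class, and edgeR's quasi-likelihood test was fitted with the library as a block over the 5 libraries with at least 20 haemoglobin-dominated barcodes. The genes come from the same barcodes the globins chose, so the test describes what accompanies that choice. Of 321 genes that passed the count filter, 71 (22.1%) were higher and 218 (67.9%) were lower in haemoglobin-dominated barcodes at a Benjamini-Hochberg adjusted p under 0.05. The 2 profiles differ so much that the scaling matters. TMM scaling put the median log2 fold change of all tested genes at -3.34, and with no scaling factors, which compares plain shares of non-globin counts, it was -1.17 with 108 (33.6%) higher and 160 (49.8%) lower. All 71 higher genes were higher under both, and 160 genes (49.8%) were lower under both. Leaving out standard 5′ replicate 1 or standard 5′ replicate 2 raised the higher count to 119 or 120, and leaving out standard 5′ or modified 5′ replicate 1 lowered the lower count to 137 or 133. Many genes pass the filter only through the class where they are high, so counts of tested list members below say which genes were called and support nothing about a list. "Rose" and "fell" are used below for these genes only, as compared with the other low-gene barcodes. Fis1, Fth1, Ftl1, Gm42418, H3f3a and Taldo1 were called lower with TMM and higher without scaling, so no direction is given for them. Log2 fold changes and standard errors are from the TMM fit, with the unscaled value beside those of leading genes.

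The 14 genes of haem synthesis took 2.79% to 6.37% of non-globin counts against 0.0860% to 0.192%. The 5 that were tested rose, Alas2, Fech, Urod and Blvrb among them, beside 22.1% of all tested genes. Alas2 took 2.43%, 3.89%, 3.45%, 1.24%, 1.23% and 1.87% of the non-globin counts, against at most 0.0185% in the other low-gene barcodes, where standard 5′ replicate 2 had 0 counts. Every library of one class lay above every library of the other. The log2 fold change was 6.09 ± 0.44 (SE, edgeR adjusted p = 6.5e-30; 8.30 unscaled). Fech, which inserts iron into the ring to finish haem, took 0.0776% to 0.658% against 0.00414% to 0.0265% (2.50 ± 0.50, adjusted p = 2.0e-06). It was thin in replicate 2, with 1, 3 and 6 counts. Blvrb, a biliverdin reductase, rose by 1.67 ± 0.45, and Urod, uroporphyrinogen decarboxylase, rose least of the 5, by 1.59 ± 0.54 (edgeR adjusted p = 0.00455). Of the untested members, Alad had 21 counts, Ppox 19, Cpox 10 and Uros 7 over the 6 libraries.

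Enzymes of red cell metabolism and protection against oxidants took 8.38% to 12.9% of non-globin counts against 0.118% to 0.333%. The 8 tested of 13 genes rose, beside 22.1% of all tested genes. Gpx1, a glutathione peroxidase that reduces hydrogen peroxide, had 3129 counts over the 6 libraries, more than any other named gene. It took 3.47%, 6.06%, 6.86%, 3.26%, 5.13% and 6.68% against 0.0567% to 0.193% (log2 fold change 2.61 ± 0.31, adjusted p = 1.4e-14; 4.86 unscaled). Bpgm, which makes the 2,3-bisphosphoglycerate that lowers the oxygen affinity of haemoglobin, had the largest rise of all tested genes. It took 3.48%, 1.45%, 1.73%, 1.63%, 0.866% and 1.54%, against at most 0.00694% (6.45 ± 0.49, adjusted p = 4.6e-28; 8.69 unscaled). Levels of Bpgm did not overlap between the classes, and the 3′ library of replicate 1 stood highest. Car2, the carbonic anhydrase that speeds carbon dioxide hydration, took 0.534% to 1.15% against at most 0.0532% (3.27 ± 0.48). Prdx2, an abundant red cell peroxiredoxin, took 0.735% to 1.29% against 0.0164% to 0.0558% (2.16 ± 0.41). Cat, Hagh and Mpp1 also rose, by 1.54, 2.09 and 1.92 on the log2 scale.

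The list for the clearing of organelles and proteins in reticulocytes formed the other large group. It is broad and also holds genes with other main functions, so its share is not that of clearance genes alone. Its genes took 14.1%, 10.1%, 11.7%, 7.99%, 6.28% and 8.55% of non-globin counts against 0.464% to 0.577%. Of 27 genes in the list, 16 were tested and 14 rose, beside 22.1% of all tested genes. Ube2h (0.75 ± 0.62) and Wdr26 (0.13 ± 0.57) did not pass with TMM. Mkrn1, a ubiquitin ligase, took 2.37%, 1.86%, 1.93%, 1.40%, 0.939% and 1.94% against 0.0113% to 0.0382% (3.57 ± 0.38, adjusted p = 3.8e-17; 5.79 unscaled). Ube2l6, the conjugating enzyme of the ubiquitin-like protein ISG15, took 1.25%, 1.22% and 1.19% in replicate 1 and 0.621%, 0.361% and 0.134% in replicate 2, against at most 0.00739% (4.65 ± 0.58). Its replicate 2 values rest on 8, 5 and 2 counts. Ube2o, which tags ribosomal proteins and unpaired globin for destruction, rose by 3.64 ± 0.66, and Trim10, a protein needed for terminal erythroid differentiation, by 3.85 ± 0.65. Bnip3l (2.43 ± 0.51), the receptor for removing mitochondria from reticulocytes, took 1.31%, 0.766% and 0.785% in replicate 1 and 0.698%, 0.0722% and 0.401% in replicate 2. The autophagy genes Map1lc3b (1.05 ± 0.45) and Gabarapl2 (1.58 ± 0.46) rose less. Ubb, a polyubiquitin gene, was abundant in both classes, at 1.63% to 4.76% against 0.182% to 0.349%. Its rise of 0.72 ± 0.31 (adjusted p = 0.024; 2.96 unscaled) did not pass with DESeq2 (adjusted p = 0.0896) or without modified 5′ replicate 1 (0.103).

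**Figure D3:**
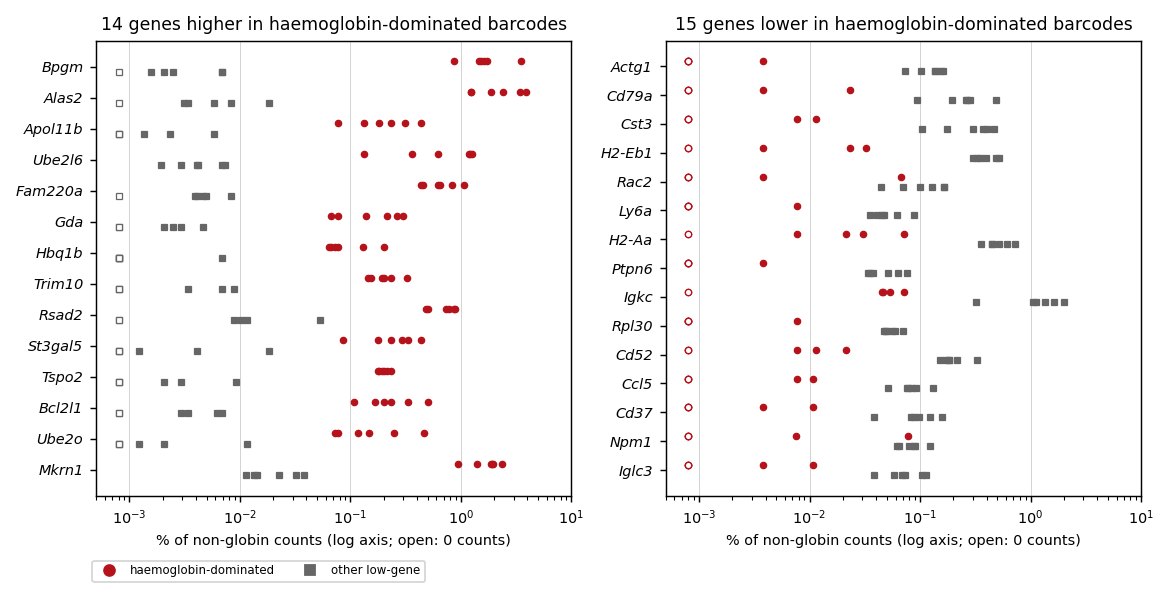
Share of non-globin counts (x axis, log scale) of 14 of the 15 genes with the largest rises (left) and the 15 with the largest falls (right), with a point per library for haemoglobin-dominated barcodes (red circles) and the other low-gene barcodes (grey squares); open marks are 0 counts, drawn at the left. On the left no red circle overlaps a grey square for any gene, while on the right Rac2 and Npm1 overlap through 1 library each, where 1 count is a large share. The genes were picked for large fold changes with 1 direction in all 6 libraries. That choice favours separation, which is therefore only a description.

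Membrane and skeleton genes were present at lower levels, 2.13% to 3.72% against 0.0123% to 0.285%. The 6 tested of 21 rose, beside 22.1% of all tested genes. Slc4a1, the band 3 anion exchanger, took 0.214%, 0.519%, 0.576%, 0.776%, 0.866% and 0.802% against at most 0.0925% (2.97 ± 0.57, edgeR adjusted p = 7.5e-07; 5.22 unscaled), and it was found in all 6 libraries. Tspo2, Epb41, Rhd and Ermap rose by 3.71, 2.70, 2.63 and 1.48. Of the untested genes of this list, Rhag had 34 counts, Epb42 32 and Sptb 29.

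Iron genes and transcription factors were less uniform. Slc25a37, the mitochondrial iron importer mitoferrin, rose by 2.97 ± 0.50 and took 1.40% in 3′ replicate 1 but 0.155% to 0.668% in the other 5 libraries. The ferritin genes took a larger share of non-globin counts in haemoglobin-dominated barcodes in every library (Ftl1 0.866% to 3.37% against 0.289% to 0.790%, Fth1 1.16% to 2.02% against 0.434% to 0.698%), but their TMM log2 fold changes were -0.75 ± 0.31 and -1.38 ± 0.30. The transferrin receptor gene Tfrc, which falls as reticulocytes mature, had 40 counts and was not tested. Of 16 transcription factor genes only Lmo2 was tested, and it did not pass (0.60 ± 0.55, adjusted p = 0.29). Klf1 and Gata1, master regulators of erythroblasts, had 9 and 4 counts in the 749 barcodes and Nfe2 had 37. Of the minor globins, Hbq1b, a theta-like globin of the alpha cluster, rose by 3.86 ± 0.79 with 79 counts, and the embryonic genes Hbb-y and Hbb-bh1 had 0 counts in both classes. Ube2c, a mitotic conjugating enzyme, was the only cell cycle gene of 2 tested that rose, beside 22.1% of all tested genes (2.95 ± 0.56; 0.155% to 0.426% against at most 0.0162%).

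Other genes among the largest rises belonged to none of these lists. Rsad2, an interferon-inducible antiviral enzyme, took 0.878%, 0.488%, 0.508%, 0.776%, 0.866% and 0.735% against at most 0.0532% (3.77 ± 0.56, adjusted p = 3.4e-10). Apol11b, an apolipoprotein L family member, rose by 4.97 ± 0.70, Fam220a by 4.32 ± 0.54, Gda, guanine deaminase, by 4.20 ± 0.69, St3gal5, a ganglioside synthase, by 3.73 ± 0.62 and Bcl2l1, which encodes the survival protein BCL-XL, by 3.71 ± 0.62. The following were picked after their values were seen. Isg15, the ubiquitin-like modifier itself, rose by 2.71 ± 0.50 (0.310% to 0.986% against at most 0.0176%). Pabpc1, the poly(A) binding protein, took 0.882% to 1.47% against 0.0580% to 0.0856% (1.04 ± 0.35, adjusted p = 0.0039; 3.29 unscaled). Gm42418 was the most abundant non-globin entry in both 3′ libraries, at 8.0% and 11.9%, and in modified 5′ replicate 2, at 8.68%, and took 2.49% to 4.95% in the other 3 libraries, against 0.854% to 4.59%. It is annotated as a long intergenic noncoding RNA on chromosome 17, overlaps AY036118 on the opposite strand, and counts of the 2 cannot be told apart where strand was not used.

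White cell transcripts were low in haemoglobin-dominated barcodes. The 18 B cell genes took 0.0776% to 0.546% of non-globin counts against 2.92% to 8.11%. The 12 that were tested fell, beside 49.8% of all tested genes, and they pass the filter through the other low-gene barcodes. Cd74, the invariant chain of MHC class II, took 0.236%, 0.209%, 0.0758%, 0.0776%, 0.144% and 0.0668% against 0.923%, 3.08%, 1.77%, 1.44%, 2.30% and 1.94% (-6.44 ± 0.40, adjusted p = 1.1e-35). Igkc, the kappa light chain constant region, had 5, 6, 12, 0, 1 and 0 counts against 109 to 3442 (-7.07 ± 0.44). Cd79a, a part of the B cell receptor, had 0, 3, 1, 0, 0 and 0 counts against 32 to 1250 (-7.85 ± 0.59). H2-Aa (-7.16) and H2-Eb1 (-7.39) of MHC class II and Cst3 (-7.76), a protease inhibitor abundant in myeloid cells, fell as well. Both tested NK cell genes fell, namely Ccl5 (-6.95 ± 0.74) and Tyrobp, beside 49.8% of all tested genes. Of 4 tested monocyte and macrophage genes, all 4 were lower with TMM, beside 67.9% of all tested genes. Of these 4 only 1, Apoe, fell under both scalings, beside 49.8%. Counts this small support nothing about either list. T cell, plasma cell, neutrophil and platelet genes did not reach the count filter in any member.

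Genes of the translation machinery and of general cell structure were low as well. The 92 ribosomal protein genes took 1.01% to 2.32% of non-globin counts against 8.72% to 13.4%, and the 34 that were tested fell, again beside 49.8% of all tested genes. Rpl30 had 1 count in the 749 barcodes against 313 (-7.02 ± 0.77). Of 12 tested genes abundant in every white cell, 11 fell under both scalings, beside the same 49.8% of all tested genes. Among them were Tmsb4x (thymosin beta 4, -5.60 ± 0.37), Actb (beta actin, -4.79 ± 0.36) and Rac2 (-7.23 ± 0.74). Actg1, gamma actin, had the largest fall, with 1 count against 819 (-8.23 ± 0.77).

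Transcripts of the mitochondrial genome took 1.69%, 0.975%, 1.10%, 3.10%, 1.37% and 1.54% of non-globin counts against 6.38%, 2.15%, 3.35%, 3.89%, 3.18% and 3.91%. The haemoglobin-dominated value was the lower in each library, but 3′ replicate 2 lay within the range of the other class. The 6 tested of 13 fell, beside 49.8% of all tested genes. Least of the 6 fell mt-Co1 (cytochrome c oxidase subunit 1, -3.17 ± 0.32, and -0.93 unscaled). In 3′ replicate 2, which was not in the fit, mt-Co1 took more in haemoglobin-dominated barcodes, 1.71% against 1.18%. At 20 non-globin counts per barcode mt-Co1 was seen in 37.4%, 23.8% and 24.3% of haemoglobin-dominated barcodes of replicate 2 against 21.1%, 20.1% and 21.5% of the others, and in replicate 1 in 18.8%, 13.2% and 13.7% against 30.1%, 14.4% and 20.7%.

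Counted per barcode, single erythroid transcripts were often seen in spite of the few non-globin counts. At least 1 Alas2 count was found in 58.6%, 72.2%, 80.2%, 56.3%, 50.0% and 55.6% of haemoglobin-dominated barcodes, against 0% to 2.60% of the other low-gene barcodes. The former had median depths of 30 to 63 non-globin counts and the latter 137 to 189. Gpx1 was seen in 46.8%, 62.4%, 68.9%, 87.5%, 86.4% and 77.8%, against 8.23% to 20.9%. Cd74 was seen in 3.70% to 9.76% against 45.9% to 68.7%. After thinning every barcode to 20 non-globin counts, which left out 63, 62, 56, 2, 7 and 5 haemoglobin-dominated barcodes and 16 others, all in standard 5′ replicate 1, Alas2 was seen in 41.4%, 57.1%, 55.8%, 25.4%, 19.0% and 23.9%, against at most 0.435%.

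The content of the haemoglobin-dominated barcodes changed with their gene number. Bins of gene number and the genes named in this paragraph were chosen after the values were seen, so the values are a description and no test is given. In the 3 replicate 1 libraries, 79, 79 and 88 barcodes had fewer than 25 genes and 11, 31 and 68 had 100 or more. Gpx1 took 0.583% (exact interval 0.214% to 1.26%), 2.89% (1.94% to 4.12%) and 1.11% (0.620% to 1.82%) of non-globin counts in the barcodes with fewer than 25 genes. In those with 50 to 99 genes it took 3.94% (3.29% to 4.67%), 7.45% (6.51% to 8.48%) and 8.90% (8.25% to 9.58%), and at 100 genes or more it was lower again, at 3.76%, 5.34% and 6.59%. Car2 had 0, 4 and 2 counts below 25 genes (0%, 0.398% and 0.147%), against 49, 36 and 75 counts at 50 to 99 genes (1.52%, 1.27% and 1.05%). Prdx2 had 1, 5 and 3 counts below 25 genes (0.0972%, 0.498% and 0.221%) and 37, 42 and 69 at 50 to 99 genes (1.15%, 1.48% and 0.967%).

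Other transcripts of the same replicate 1 barcodes declined from the lowest bin on. Alas2 took 4.18%, 10.2% and 12.2% of non-globin counts below 25 genes and 0.743%, 1.57% and 1.84% at 100 genes or more. Ftl1, the ferritin light chain, took 7.19%, 7.87% and 9.44% and then 1.09%, 1.19% and 1.56%. Tpt1, which encodes a growth-related protein, took 2.04%, 1.79% and 3.17% and then 0.198%, 0.238% and 0.231%. Gm42418 took 14.9%, 8.17% and 14.8% and then 3.76%, 1.25% and 3.15%. The intervals of Alas2, Ftl1 and Tpt1 did not overlap between these bins in any of the 3 libraries. White cell markers were 0.777%, 1.39% and 0.885% below 25 genes and 0.594%, 0.714% and 0.526% at 100 genes or more. In replicate 2 only 5, 10 and 9 barcodes had fewer than 25 genes, with 131, 178 and 178 non-globin counts, and Gpx1 took 3.05%, 11.2% and 3.93% there. Alas2 took 0.763%, 2.25% and 4.49% there and 1.09%, 0.519% and 1.44% at 100 genes or more. Ftl1 took 0.763%, 2.25% and 2.25% and then 1.36%, 0.390% and 3.45%. These values rest on 1 to 12 counts each, and neither decline was seen in every replicate 2 library.

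**Figure D4:**
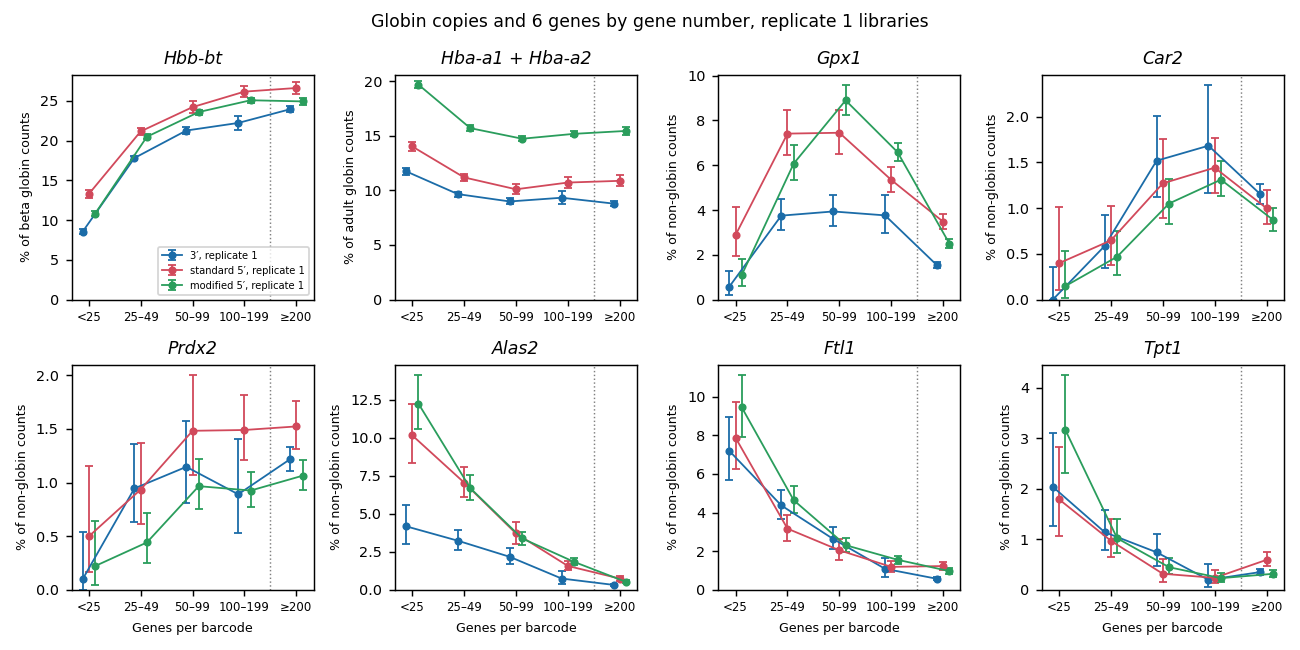
Make-up of globin-dominated barcodes by number of genes per barcode (x axis) in the 3 replicate 1 libraries (colour): Hbb-bt as a percentage of beta globin counts, the alpha genes as a percentage of adult globin counts, and 6 genes as percentages of non-globin counts (y axes), with exact 95% intervals. Barcodes left of the dotted line are the chosen ones, and those right of it have 200 genes or more. Hbb-bt rose from 8.53%, 13.3% and 10.8% below 25 genes to 22.2%, 26.2% and 25.1% at 100 genes or more, while Alas2, Ftl1 and Tpt1 declined.

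The globins themselves followed the same axis. Hbb-bt was 16.9%, 20.5% and 21.1% of beta globin counts over all haemoglobin-dominated barcodes of replicate 1, and 20.9% to 24.3% in replicate 2. In replicate 1 it was 8.53% (8.23% to 8.83%), 13.3% (12.8% to 13.7%) and 10.8% (10.5% to 11.1%) below 25 genes and 22.2%, 26.2% and 25.1% at 100 genes or more. Per barcode with at least 200 globin counts, Hbb-bt had a standard deviation of 7.37, 7.54 and 7.66 percentage points, where counting error alone gives 1.43, 2.01 and 1.54. Spearman's rho of the Hbb-bt share with gene number was 0.813, 0.759 and 0.754 over 165, 165 and 267 barcodes of these libraries, as a description across barcodes that share a library. In replicate 2 it was 0.609, 0.380 and 0.022 over 11, 15 and 16 barcodes, and none of these barcodes had an Hbb-bt share below 10%, against 42, 26 and 38 barcodes in replicate 1. The beta copies differ in 1 coding base, and over whole annotated transcripts 59.4% of the 31-base words of Hbb-bt also occur in Hbb-bs. The Hbb-bt share therefore depends on how reads were assigned, and the part of that assignment in the pattern was not tested.

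The alpha genes together took 9.95%, 11.7%, 15.9%, 7.69%, 15.3% and 16.7% of adult globin counts. The 3′ libraries were the lowest of each replicate number. In the 5 libraries used for the test the haemoglobin-dominated barcodes had 13.9% ± 2.93 and the other low-gene barcodes 13.2% ± 4.49 (SD, n = 5 libraries), of which standard 5′ replicate 2 had only 12 globin counts in the latter. The mean within-library difference was 0.702 points, whereas the SDs hold the spread between libraries and are no measure of it. The 4 globins chose the barcodes, so this difference is a description and no p-value is given. Its sign reversed at 80% globin, at 100 counts and below 100 genes. Within replicate 1 the alpha share was higher below 25 genes (11.7%, 14.0% and 19.7%) than at 50 to 99 genes (8.98%, 10.1% and 14.7%). Hba-a1 was listed at 1.16%, 1.25% and 1.12% of the alpha counts in replicate 1, for a pair of genes whose coding sequences are nearly the same.

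Barcodes with a lower globin share carried a different remainder. The 113 barcodes with 50% to 80% globin had median gene numbers of 136, 104.5, 126, 65.5, 108.5 and 79, above the medians of all chosen barcodes. Their erythroid share was 14.2%, 22.9%, 21.3%, 18.8%, 16.7% and 22.0% of non-globin counts, against 30.9%, 39.3% and 35.9% in the replicate 1 barcodes with at least 90% globin. White cell markers were 1.10%, 0.638% and 0.420% in the former and 0.649%, 0.918% and 0.524% in the latter, so they did not move one way. Cell cycle genes took 2.29%, 1.68% and 0.642% against 0.503%, 0.506% and 0.246%, higher at the lower globin share in all 3 libraries. Malat1, a nuclear noncoding RNA, took 1.27%, 0.865% and 2.27% against 0.212%, 0.0317% and 0.0397%. These bands were chosen after the values were seen and are not tested.

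The globin-dominated barcodes with 200 genes or more were the nearest class in the same libraries, with 51, 27 and 38 in replicate 1 and 1, 2 and 0 in replicate 2. This comparison was added after the data were seen and uses the 3 replicate 1 libraries. Of 262 genes tested, 56 (21.4%) were higher and 62 (23.7%) lower in the haemoglobin-dominated barcodes with TMM, and 36 (13.7%) higher and 81 (30.9%) lower with no scaling factors. Under both, 36 (13.7%) were higher and 62 (23.7%) lower, and only these are named. Gene number defined the 2 classes, and it is the outcome of both RNA content and depth, which cannot be told apart here.

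Genes of division took a smaller share in the barcodes with fewer genes. The whole list of 24 cell cycle genes took 0.707%, 1.18% and 0.356% of non-globin counts against 3.09%, 4.79% and 3.34%. The 11 tested were all lower, beside 23.7% of all tested genes, but such genes pass the count filter through the class with 200 genes or more, where they are high, so this count supports nothing further. Top2a, the topoisomerase of dividing cells, took 0.0107%, 0.031% and 0.00379% against 0.209%, 0.198% and 0.145% (-3.69 ± 0.64, edgeR adjusted p = 0.00038). Cdca3 and Cks2, both cell cycle regulators, had log2 fold changes of -4.09 ± 0.83 and -4.0 ± 0.77. The tubulin genes Tubb5 (-3.28) and Tuba1b (-3.24) were lower too. The histone genes Hist1h1b and Hist1h2ae were listed at 0.171%, 0.031% and 0%, and 0.0642%, 0.0542% and 0%, against 0.190% to 1.06% and 0.232% to 0.725%.

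The erythroid lists went different ways. Of 17 tested genes of the clearance list 10 were higher and 1 lower, beside 13.7% higher and 23.7% lower of all tested genes. Of 11 tested haem synthesis genes 1, Alas2, was higher and 4 were lower. Of 13 tested membrane genes 1, Epb41, was higher and 4 were lower. The 9 tested enzyme genes gave 4 higher and 0 lower. These counts name the calls only and support nothing about a list. As a share of non-globin counts the haem synthesis list was larger, at 3.71%, 6.37% and 5.68% against 2.43%, 3.53% and 2.71%. Alas2 alone, given below, made up most of the former values and a small part of the latter. The larger share therefore does not describe the other members of that list. The enzyme list was larger too, at 11.9% to 12.9% against 4.71% to 6.90%. The membrane list was smaller, at 2.1% to 2.5% against 2.9% to 3.1%. Bpgm took 3.48%, 1.45% and 1.73% against 0.151%, 0.0603% and 0.127% (4.34 ± 0.32, adjusted p = 1.3e-07; 3.67 unscaled). Alas2 took 2.43%, 3.89% and 3.45% against 0.326%, 0.740% and 0.521% (2.74 ± 0.27). Mkrn1 (2.98 ± 0.28), Bnip3l (2.94 ± 0.37), Ubb (2.84 ± 0.28), Gabarapl2 (3.15 ± 0.38) and Ccndbp1 (3.58 ± 0.58) were higher too. The blood group membrane genes Rhd (-1.92) and Ermap (-1.24) were lower, while Slc4a1 (0.05), Car2 (0.20) and Prdx2 (-0.27) did not pass. The counts of calls rested on modified 5′ replicate 1: without it 15 genes were higher and 3 lower.

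**Figure D5:**
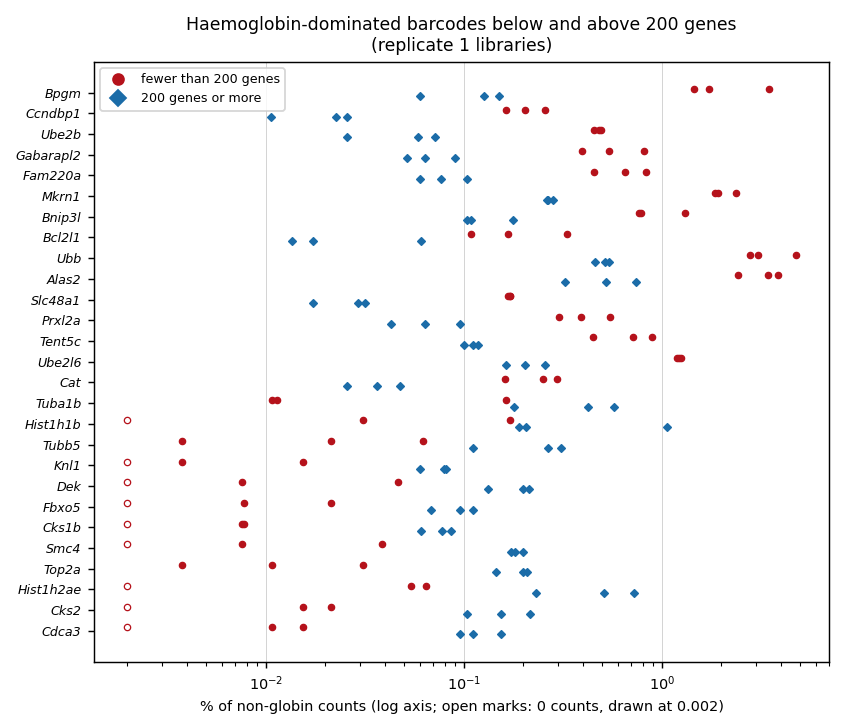
Share of non-globin counts (x axis, log scale) in the 3 replicate 1 libraries for globin-dominated barcodes with fewer than 200 genes (red circles) and with 200 or more (blue diamonds); open marks are 0 counts. The 15 genes with the largest rises stand at the top and the 12 with the largest falls at the bottom; Bpgm lies at 1.45% to 3.48% against 0.0603% to 0.151%.

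The 2 replicate numbers did not give detectably different contents for the haemoglobin-dominated barcodes. A test of the difference in log2 fold change between replicate 1 and 2 called 0 of 321 genes at an edgeR adjusted p under 0.05, with a smallest adjusted p of 0.245, and 20 genes had an unadjusted p under 0.05. With no scaling factors it called 0, and 16 were under 0.05 unadjusted. The replicate 2 sums of at most 1497 non-globin counts limit what could be seen.

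Across 20275 genes, the summed non-globin profile of the haemoglobin-dominated barcodes had correlations of 0.443, 0.502, 0.481, 0.222, 0.220 and 0.278 with the sum of the barcodes with 200 or more genes and under 50% globin of the same library (Pearson's r of log2(CPM + 10)). The other low-gene barcodes had 0.817, 0.945, 0.830, 0.943, 0.906 and 0.848. Genes are not independent replicates and the sums differ in depth, so these are descriptions.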

How the data were processed

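Single-cell libraries were read on a Nanopore instrument. The authors deposited raw counts per gene symbol and barcode, whole numbers with no normalization, per the file headers and values. The submitters' processing notes name mm10 and, for replicate 2, Seurat without a version or role. For aligner, annotation, use of strand, molecular identifiers and cell calling, the answer is not given in the sources used here; values are therefore called counts. Every barcode in the tables entered; no doublet caller was run, since the barcodes lie below 200 genes.

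Barcodes were chosen by the rule in the first paragraph. Shares and CPM use non-globin counts. Summed counts were tested with edgeR 4.0.16 (R 4.3.3): quasi-likelihood, TMM factors, filterByExpr, library as block, Benjamini-Hochberg at 0.05, 4 residual degrees of freedom, biological coefficient of variation 0.372. 3′ replicate 2 (16 barcodes) was left out of the fit for having fewer than 20. TMM factors were 1.84 to 2.84 for haemoglobin-dominated and 0.366 to 0.502 for other sums, so a fit with no scaling factors was added after seeing the data. DESeq2 1.42.0 was an alternative. On simulated counts for this comparison (321 genes), 26% of changes of 1 and 92% of changes of 2 on the log2 scale were recovered, and 0.826% of unchanged genes were called. Rises and falls were simulated in equal number around a shared profile, unlike the real comparison. These rates therefore do not cover errors that come from the scaling. Class sums of 1 library share that library, which is why the library is the pair and the block.

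Genes named are the 15 largest rises and 15 largest falls among calls with a mean of at least 100 CPM and 1 direction in all 6 libraries, plus erythroid list genes; others are said to be picked later. Some genes of these lists are not reported here, though counts and medians of lists include them. Members, lists and rules were chosen with earlier results of these data known. Coordinates and transcripts are GENCODE M21. Single-library shares have exact (Clopper-Pearson) intervals, and 3 counts is the floor for a count of 0. Barcodes are not replicates: tests are over libraries.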

Additional observations from a re-analysis of the deposited data

How the results depend on the processing

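The count of higher genes, 71, was 108 with no scaling factors (added after seeing the data), 181 of 13950 with no filter, 255 against barcodes with 200 genes or more, 113 at 80% globin, 119 at 100 counts, 47 of 116 below 100 genes, 130 in replicate 1 only and 41 in replicate 2 only. The count of lower genes, 218, was 1700, 1128, 135 and 55 under no filter, barcodes with 200 genes or more, 80% globin and fewer than 100 genes, 142 with others at most 20% mitochondrial, and 82 in replicate 2 only. Leaving out 1 library gave 86 to 120 higher (119 without standard 5′ replicate 1, 120 without standard 5′ replicate 2) and 133 to 277 lower (137 without standard 5′ and 133 without modified 5′ replicate 1); 70 or 71 of the 71 higher genes stayed called. The cause was not tested. With no replicate block 76 were higher and 218 lower, so the library pairing changed neither count by over 1.5 times. DESeq2 gave 70 and 214.

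Against barcodes with 200 genes or more and over 50% globin, 56 higher became 36 with no scaling factors; leaving out 1 library gave 15 to 72 higher and 3 to 80 lower.

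Standard 5′ minus 3′ reversed at 80% globin (-0.217) and per low-gene barcode (-15). Leaving out 1 library gave -2.96 to 4.55 points for that pair, -2.77 to 7.79 for modified 5′ minus 3′ and -3.56 to 7.0 for modified minus standard 5′; in the replicate block these differences were 0.796, 2.51 and 1.72, as without it (exact sign-flip p = 0.5 each, the smallest possible). The alpha share difference became -0.857 at 80% globin, -0.874 at 100 counts, -0.0983 below 100 genes and -0.865 to 2.09 with 1 library left out.

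Among 66 named genes, 1294 of 1337 values kept direction and side of the threshold, 29 lost the call and 13 gained it. mt-Co1 reversed, to 0.33, against barcodes with 200 genes or more.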
